A study of Homo sapiens with 6 samples.

Results

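The transcripts of 9 genes for epithelial surface antigens and mucins were described across 6 RNA sequencing libraries of 2 bladder cancer cell lines. The genes were EPCAM, CD24, CD44, MSLN, MUC1, MUC4, MUC16, MUC20 and CEACAM6, and they were chosen by symbol, as 9 of the 50868 genes with values. UM-UC-3 cells, grown in DMEM, and 5637 cells, grown in RPMI medium, are established human lines. Each line was infected with lentivirus carrying a control hairpin (sh-NC) or 1 of 2 hairpins against the long noncoding RNA LNMAT1 (sh-LNMAT1#1 and sh-LNMAT1#2), and stable cells were selected with puromycin, so that all 6 libraries came from infected and selected cells. There was 1 library for each construct in each line, and no library has a replicate. The question of the study was what silencing of LNMAT1 changes in these cells, and the same libraries also set the lines side by side.

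EPCAM is an adhesion protein of epithelial cells, and CD24, MSLN and CEACAM6 are small surface proteins held in the membrane by a lipid anchor. CD44 is the main surface receptor for hyaluronan and is found on epithelial and mesenchymal cells alike. MUC1, MUC4, MUC16 and MUC20 are mucins that span the membrane, with long outer parts carrying O-linked sugars. They coat the free surface of epithelia. MUC16 carries the antigen CA125 and binds mesothelin, the product of MSLN, while MUC4 can bind the receptor ERBB2. Carcinoma lines that have lost epithelial traits often lack EPCAM and keep CD44.

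The library labelled 5637 sh-NC did not resemble the other libraries with a 5637 label. Over 12717 genes averaging 1 FPKM or more, which are not independent replicates, its Pearson r was 0.985 with UM-UC-3 sh-LNMAT1#1, and 0.617 and 0.622 with the 5637 sh-LNMAT1 libraries. Its r was 0.922 with UM-UC-3 sh-NC and 0.933 with UM-UC-3 sh-LNMAT1#2. UM-UC-3 sh-LNMAT1#1 had an r of 0.923 and 0.932 with those libraries of its own line, lower than with the library labelled 5637 sh-NC. The library labelled 5637 sh-NC is therefore called by its label throughout. Results that use it are named as such, with a value that leaves it out where one can be had. LINC01296, the name under which LNMAT1 is listed, was at 14.2 FPKM in UM-UC-3 sh-NC, 6.20 with sh-LNMAT1#1 and 6.70 with sh-LNMAT1#2. In the libraries labelled 5637, it was at 11.7, 4.70 and 2.14 FPKM in the same order. Depth lay between 19374788 and 24706791 fragments per library.

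The epithelial name of the gene set was checked against markers of cell types. Of 11 epithelial markers, 10 were at or over 1 FPKM in each 5637 sh-LNMAT1 library, and 2 of 11 in every other library, including the library labelled 5637 sh-NC. Their summed level was 726 and 957 FPKM in the 5637 sh-LNMAT1 libraries, and 21.6 to 31.0 FPKM elsewhere. Of the 6 urothelial markers, UPK1B was listed at 0 in every library and UPK1A, UPK2 and UPK3A stayed under 1 FPKM, while GATA3 and PPARG were higher in the 5637 sh-LNMAT1 libraries. Of the 8 leukocyte markers, CD3E was listed at 0 throughout, and the 2 over 1 FPKM in any library ran opposite ways: CD68, a lysosomal protein of macrophages, was at 13.0 to 31.0 FPKM in the UM-UC-3 libraries and the library labelled 5637 sh-NC and at 0.749 and 0.826 FPKM in the 5637 sh-LNMAT1 libraries, and LAPTM5 was high in the latter pair. All 5 endothelial markers were under 1 FPKM in all libraries.

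The start regions of the mucins and of CD24 are shown first, because MUC16, MUC4 and CD24 were the genes with a sequence on hand that were highest in the 5637 sh-LNMAT1 libraries, and MUC1 is the mucin that was not. The sequences are RefSeq windows on GRCh38.p14, from 250 bases before the annotated start to 50 bases after it, 5′ to 3′ on the strand of the gene. RefSeq windows were on hand for 6 of the 9 genes, and none for EPCAM, MSLN or MUC20. Capitals mark CAGGTG or its complement on the other strand, CACCTG, the core of the E-box that ZEB1 and SNAI proteins bind. RefSeq gives CD24 3 windows. The first, at chr6:106975578-106975877 on the minus strand, has its start at the same base as the deposited gene position and holds no E-box of this kind. The other two start further downstream, and the third, at chr6:106973990-106974289, holds CAGGTG at its 5′ end. The first is shown:
CD24: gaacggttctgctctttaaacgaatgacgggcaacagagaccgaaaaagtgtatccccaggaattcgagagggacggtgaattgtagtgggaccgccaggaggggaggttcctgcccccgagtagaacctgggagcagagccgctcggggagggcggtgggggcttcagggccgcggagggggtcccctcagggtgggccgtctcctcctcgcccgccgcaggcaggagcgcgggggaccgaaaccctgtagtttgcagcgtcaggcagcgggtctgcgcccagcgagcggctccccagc
The MUC4 window, at chr3:195811880-195812179 on the minus strand, also holds none:
MUC4: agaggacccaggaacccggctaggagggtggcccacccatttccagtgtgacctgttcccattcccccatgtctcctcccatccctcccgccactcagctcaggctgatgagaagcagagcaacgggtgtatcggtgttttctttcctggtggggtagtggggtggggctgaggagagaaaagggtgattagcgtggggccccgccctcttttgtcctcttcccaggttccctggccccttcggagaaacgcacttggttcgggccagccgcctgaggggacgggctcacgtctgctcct
RefSeq gives MUC16 a pair of starts, with windows at chr19:9065702-9066001 and chr19:9010360-9010659 on the minus strand. Both lie upstream of the MUC16 gene model in the deposited values, which ends at 8981342. The first holds CACCTG starting 13 bases after the start, and the second CAGGTG starting 159 bases before it:
MUC16 first start: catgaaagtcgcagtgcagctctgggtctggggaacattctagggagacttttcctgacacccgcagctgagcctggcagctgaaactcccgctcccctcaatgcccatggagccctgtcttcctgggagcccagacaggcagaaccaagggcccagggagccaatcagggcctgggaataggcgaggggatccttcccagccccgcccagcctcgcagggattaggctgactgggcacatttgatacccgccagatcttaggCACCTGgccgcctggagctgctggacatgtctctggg
MUC16 second start: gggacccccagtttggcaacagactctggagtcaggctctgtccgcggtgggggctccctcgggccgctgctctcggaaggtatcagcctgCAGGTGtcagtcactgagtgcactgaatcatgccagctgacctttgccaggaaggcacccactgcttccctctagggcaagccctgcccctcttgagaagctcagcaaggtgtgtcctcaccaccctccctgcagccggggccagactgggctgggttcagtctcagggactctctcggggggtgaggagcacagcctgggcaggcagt
RefSeq gives MUC1 2 windows, with starts at 155192915 and 155192909 on the minus strand. Each holds CACCTG in a pair, 1 base apart, and also TATAAA. The first, at chr1:155192866-155193165, is shown:
MUC1: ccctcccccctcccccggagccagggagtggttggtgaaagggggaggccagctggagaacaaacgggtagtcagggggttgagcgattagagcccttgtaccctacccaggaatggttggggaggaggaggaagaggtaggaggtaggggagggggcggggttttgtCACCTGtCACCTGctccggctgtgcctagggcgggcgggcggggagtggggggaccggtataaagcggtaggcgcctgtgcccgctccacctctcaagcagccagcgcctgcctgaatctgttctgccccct
Of all 35116 windows in RefSeq, 20.6% hold CAGGTG or CACCTG, 11.5% hold TATAAA or its complement and 1.73% hold AACCNGTT or its complement, the motif of the GRHL factors, which none of the windows of these genes held. The 6 genes have 10 windows, of which 5, in 3 genes, hold CAGGTG or CACCTG. Both MUC1 windows are among the 5 and share most of their bases. The windows of CD44 and CEACAM6, not shown, hold neither, and that of CEACAM6 holds TATAAA. A match is a description of letters and no evidence of binding. ZEB1, a repressor of epithelial genes, was at 8.67 to 12.7 FPKM in the UM-UC-3 libraries, 12.6 FPKM under the label 5637 sh-NC, and 0.0264 and 0.00774 FPKM in the 5637 sh-LNMAT1 libraries. GRHL2, an activator of epithelial genes, was at 16.2 and 14.5 FPKM in those libraries and at most 0.0166 FPKM in the other 4.

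EPCAM (ENSG00000119888) lies on chromosome 2 from 47345158 to 47387601 on the plus strand. It was at 0.00945 FPKM in UM-UC-3 sh-NC, 0.0210 with sh-LNMAT1#1 and 0.0204 with sh-LNMAT1#2. Under the label 5637 sh-NC its value was 0.0104 FPKM, with 5637 sh-LNMAT1#1 following at 33.8 FPKM and 5637 sh-LNMAT1#2 at 35.6 FPKM. These levels rest on 1, 2, 2 and 1 fragments in the first 4 libraries and on 3010 and 2954 in the last pair. EPCAM was thus at or under the floor of 3 fragments in 4 libraries and abundant in the other pair, with no overlap. As in all bulk RNA, fewer cells with a transcript and less of it per cell cannot be told apart.

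CD24 (ENSG00000272398), on chromosome 6 from 106969831 to 106975627 on the minus strand, was present in every library and spread widely. UM-UC-3 sh-NC held 1.49 FPKM, UM-UC-3 sh-LNMAT1#1 8.37 and UM-UC-3 sh-LNMAT1#2 2.41. Under the label 5637 sh-NC the level was 11.7 FPKM, against 32.8 for 5637 sh-LNMAT1#1 and 47.5 for 5637 sh-LNMAT1#2. The 5637 sh-LNMAT1 libraries were the highest and UM-UC-3 sh-NC the lowest. As a ratio, the UM-UC-3 libraries, at 309 to 1566 fragments, lay further apart than the 5637 sh-LNMAT1 libraries, at 5724 and 7738. Of the 50-base words in CD24 transcripts, 4.95% also occur in transcripts of other genes, 3.62% in those of its copy CD24P4, so the CD24 level may be split between copies.

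CD44 (ENSG00000026508), on chromosome 11 from 35138870 to 35232402 on the plus strand, was the gene of the set that was high in both lines. It was at 24.6 FPKM in UM-UC-3 sh-NC, 21.8 with sh-LNMAT1#1 and 21.9 with sh-LNMAT1#2. Under the label 5637 sh-NC the level was 19.0 FPKM, against 6.30 for 5637 sh-LNMAT1#1 and 18.9 for 5637 sh-LNMAT1#2. A single library, 5637 sh-LNMAT1#1, stood below the others, and the 5637 sh-LNMAT1 libraries both lay under the UM-UC-3 libraries. CD44 has many spliced forms, which a level per gene does not tell apart.

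MUC16 (ENSG00000181143), on chromosome 19 from 8848844 to 8981342 on the minus strand, was split between the same libraries as EPCAM. It was at 0.00183 FPKM in UM-UC-3 sh-NC, 0.00710 with sh-LNMAT1#1 and 0.00590 with sh-LNMAT1#2, from 2, 7 and 6 fragments. The library labelled 5637 sh-NC had 0.00503 FPKM, from 5 fragments. In 5637 sh-LNMAT1#1 it was at 13.9 FPKM and in 5637 sh-LNMAT1#2 at 10.4 FPKM, from 12776 and 8905 fragments. MUC16 has by far the longest transcript of the set, so that its fragments in 5637 sh-LNMAT1#1 outnumbered those of EPCAM and CD24 at a lower level per length.

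MUC4 (ENSG00000145113), on chromosome 3 from 195746765 to 195812277 on the minus strand, was split in the same way at a far lower level. It was at 0.0218 FPKM in UM-UC-3 sh-NC, 0.0224 with sh-LNMAT1#1 and 0.0181 with sh-LNMAT1#2, from 13, 12 and 10 fragments. Under the label 5637 sh-NC it was at 0.0167 FPKM, against 0.581 for 5637 sh-LNMAT1#1 and 0.609 for 5637 sh-LNMAT1#2, from 9, 291 and 284 fragments. Its mean was under 1 FPKM, so it entered no test with that filter.

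MUC1 (ENSG00000185499), on chromosome 1 from 155185824 to 155192916 on the minus strand, lay the other way round. UM-UC-3 sh-NC held 0.243 FPKM, UM-UC-3 sh-LNMAT1#1 0.225 and UM-UC-3 sh-LNMAT1#2 0.335. The 3 libraries labelled 5637 were at 0.123 FPKM for sh-NC, 0.128 for sh-LNMAT1#1 and 0.127 for sh-LNMAT1#2. The UM-UC-3 libraries, with 51 to 78 fragments, did not overlap the 3 libraries labelled 5637, with 25 to 28. For MUC1 the library labelled 5637 sh-NC thus lay with the other libraries of its label, at counts of this size.

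MUC20 (ENSG00000176945), on chromosome 3 from 195720882 to 195741123 on the plus strand, next to MUC4, was at 0.00400 FPKM in UM-UC-3 sh-NC, 0.0844 with sh-LNMAT1#1 and 0.0129 with sh-LNMAT1#2. Under the label 5637 sh-NC it was at 0.0573 FPKM, against 0.152 for 5637 sh-LNMAT1#1 and 0.138 for 5637 sh-LNMAT1#2. No library held more than 32 fragments of it. Of its 50-base words, 54.1% occur in other genes, 42.3% in MUC20-OT1 and 21.5% in the pseudogene MUC20P1, and its level is uncertain.

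MSLN (ENSG00000102854) is listed on chromosome 16 from 643262 to 768865 on the plus strand, while GENCODE 29 starts the gene at 760762. It was at 0.00854 FPKM in UM-UC-3 sh-NC, 0.0663 with sh-LNMAT1#1 and 0.0184 with sh-LNMAT1#2, from 1, 7 and 2 fragments. In the libraries labelled 5637 it was at 0.0752 FPKM with sh-NC, 0.0812 with sh-LNMAT1#1 and 0.131 with sh-LNMAT1#2, from 8, 8 and 12 fragments. The UM-UC-3 libraries, at 1 to 7 fragments, lay below those labelled 5637, at 8 to 12, but the counting intervals of 7 fragments (2.81 to 14.4) and 8 fragments (3.45 to 15.8) overlap. CEACAM6 (ENSG00000086548), on chromosome 19 from 41750977 to 41772208 on the plus strand, was listed at 0 in UM-UC-3 sh-LNMAT1#2, in the library labelled 5637 sh-NC and in 5637 sh-LNMAT1#1, and rested on 1, 2 and 2 fragments in the other libraries. The floor of 3 fragments corresponds to 0.0400, 0.0409 and 0.0441 FPKM in those libraries, and the counting interval of 0 fragments reaches 3.69 fragments. CEACAM6 was not detectable above the floor of 3 fragments at this depth, and no fold is given. These floors and all intervals of fragments cover counting error only.

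**Figure D1:**
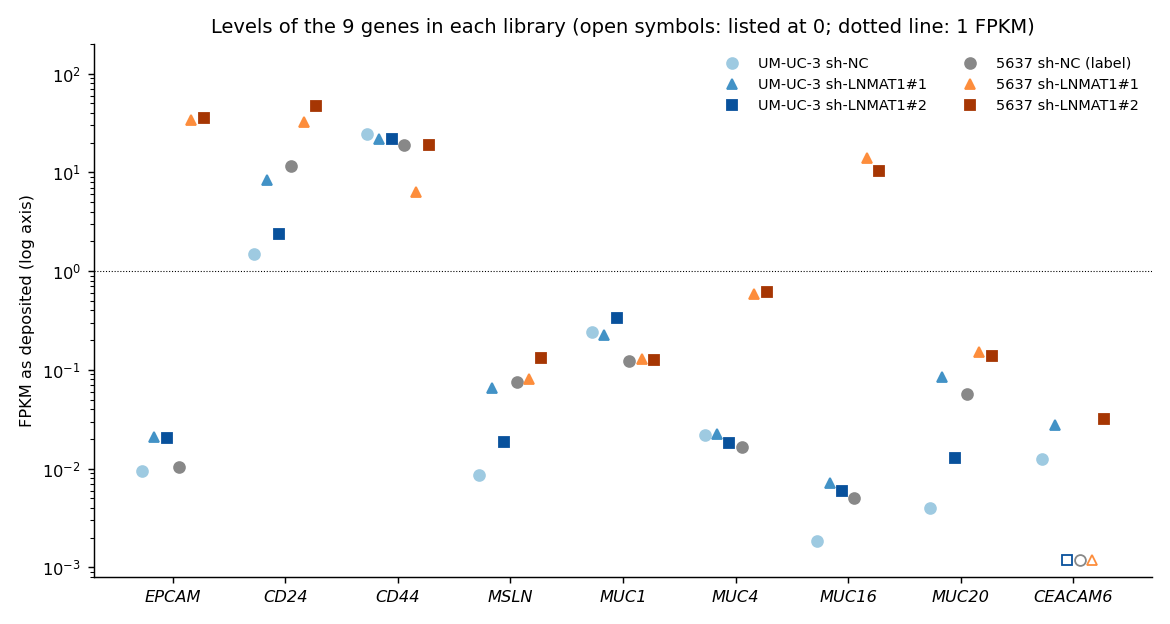
Deposited FPKM of the 9 genes (log axis) in each of the 6 libraries, 1 point per library, with open symbols for values listed at 0. EPCAM and MUC16 are high in the 5637 sh-LNMAT1 libraries only, at 33.8 and 35.6 FPKM for EPCAM. MUC4 is higher there than elsewhere but under 1 FPKM, at 0.581 and 0.609 FPKM. CD44 is high in all 6, and the point of the library labelled 5637 sh-NC lies near those of UM-UC-3 for EPCAM, MUC4 and MUC16.

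The length used for FPKM changes the order of the genes within a library. Fragment counts came out whole when the length was taken as the sum of all distinct exons of a gene. Overlapping exons are counted more than once in this sum. It was 2.71 times the merged exon length for CD24, 2.38 for MUC20, 2.15 for MUC1, 2.06 for CD44 and 1.70 for EPCAM. For MUC4 it was 1.13 times that length, for CEACAM6 1.07 and for MUC16 1.01. The length of CD44 is approximate, as its fragments did not come out whole, and for MSLN a length of 4738 bases, longer than its distinct exons, made them whole. In 5637 sh-LNMAT1#1 the deposited level of EPCAM, 33.8 FPKM, lay above that of CD24, 32.8 FPKM. Per merged exon length, CD24 was at 88.8 FPKM and EPCAM at 57.4 FPKM, so the order turned. MUC16, at 14.0 FPKM, was then close to CD44, at 13.0 FPKM, where the deposited levels were 13.9 and 6.30 FPKM. In 5637 sh-LNMAT1#2 the order per merged length was CD24 at 129 FPKM, EPCAM at 60.5, CD44 at 38.9 and MUC16 at 10.5, followed by MUC4 at 0.687, MUC20 at 0.328, MUC1 at 0.274, MSLN at 0.242 and CEACAM6 at 0.0338. The counting intervals of MUC20 and MUC1, 17.8 to 39.3 and 16.2 to 36.9 fragments, overlap. In UM-UC-3 sh-NC, CD44 led at 50.6 FPKM per merged length, CD24 followed at 4.04 and MUC1 at 0.523, and the other 6 genes were at most 0.0247 FPKM. A comparison of 1 gene between libraries does not depend on its length, apart from the constant of 0.5 added below.

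The lines were compared over the 4 sh-LNMAT1 libraries, 2 against 2, which leaves out the library labelled 5637 sh-NC and sets cells with the same constructs side by side. EPCAM, MUC16 and CD24 were higher in 5637 and CD44 did not pass the test. Each difference is one of log2(FPKM + 0.5), where the constant of 0.5 FPKM understates the change of low genes. Tests were made with limma over the 12844 genes that averaged 1 FPKM or more in the 4 libraries, with Benjamini-Hochberg adjustment. The spread in this test is that between the hairpins of a line, which were not said to come from separate cultures, and line and medium cannot be told apart.

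Of the 9 genes, 4 passed the filter, and 3 of these were called higher in 5637 and 0 lower, against 20.1% of all genes tested called higher and 18.4% called lower. Without 5637 sh-LNMAT1#1 the test called 754 genes higher and 438 lower, and without 5637 sh-LNMAT1#2 781 and 440, against 2588 and 2361 with both. EPCAM and MUC16 passed the filter only through their level in 5637, so they had to differ, and their count is no support for the set. EPCAM differed by 6.08 on the log2 scale (standard error 0.19, adjusted p from limma = 0.000154). Per fragment sequenced, EPCAM was 1678 times as high in the 5637 sh-LNMAT1 libraries as in the UM-UC-3 sh-LNMAT1 libraries, with an exact 95% counting interval of 655 to 6162, from 5964 against 4 fragments. MUC16 differed by 4.63 (standard error 0.23, adjusted p from limma = 0.000221), with a ratio of 1877 (1098 to 3527) from 21681 against 13 fragments. The log2 scale thus places EPCAM above MUC16, while the intervals of the fragment ratios overlap.

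CD24, which passed the filter in either line, differed by 2.98 (standard error 0.55, adjusted p from limma = 0.0112), a fragment ratio of 7.47 (7.12 to 7.83). The UM-UC-3 sh-LNMAT1 libraries differed from each other by -1.61 for CD24, sh-LNMAT1#2 minus sh-LNMAT1#1. The call was lost without 5637 sh-LNMAT1#1 (3.24, adjusted p from limma = 0.117) and without 5637 sh-LNMAT1#2 (2.71, adjusted p from limma = 0.141), where the lone library is assumed to vary like the others. It was also lost without the filter on low genes (adjusted p from limma = 0.0633). CD44 differed by -0.96 (standard error 0.50, adjusted p from limma = 0.18), and by -0.21 without 5637 sh-LNMAT1#1 and -1.72 without 5637 sh-LNMAT1#2, so that 1 library sets its size.

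The other 5 genes did not pass the filter. Their fragments gave ratios of 5637 sh-LNMAT1 over UM-UC-3 sh-LNMAT1 of 29.4 for MUC4 (19.2 to 47.3), 3.02 for MUC20 (1.82 to 5.17), 2.5 for MSLN (1.09 to 6.24) and 0.454 for MUC1 (0.322 to 0.631). These intervals do not include 1, but they compare 4 libraries as counted and not the lines. When no filter was used, MUC4 differed by 1.07 (standard error 0.12, adjusted p from limma = 0.0232) and MSLN, MUC1, MUC20 and CEACAM6 did not pass, with adjusted p from limma of 0.289, 0.192, 0.184 and 0.954.

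When all 6 libraries were placed by their labels, the library labelled 5637 sh-NC moved to the 5637 side and 0 of the 9 genes was called, with 1 gene higher and 1 lower among all tested. EPCAM then differed by 4.05, MUC16 by 3.09 and CD24 by 2.86, each with an adjusted p from limma of 0.335. With UM-UC-3 sh-NC added to the UM-UC-3 side and the library labelled 5637 sh-NC left out, EPCAM differed by 6.09, MUC16 by 4.63 and CD24 by 3.43, and all 3 were called. Between the libraries labelled sh-NC, EPCAM rested on 1 fragment in each, and MUC16 on 5 fragments in the library labelled 5637 and 2 in UM-UC-3. CD24 was 7.89 times as high (7.0 to 8.92) in the library labelled 5637 sh-NC as in UM-UC-3 sh-NC, and 1.40 times as high (1.32 to 1.5) as in UM-UC-3 sh-LNMAT1#1. Against UM-UC-3 sh-NC, MUC20 was at 14.3 times (2.15 to 608), MSLN at 8.81 times (1.18 to 391) and MUC1 at 0.505 times (0.311 to 0.803). These intervals do not include 1, but those of MUC20 and MSLN rest on 1 fragment in UM-UC-3 sh-NC. Against UM-UC-3 sh-LNMAT1#1, MUC20 was at 0.679 times (0.308 to 1.45) and MSLN at 1.13 times (0.360 to 3.68), intervals that include 1. MUC1 was at 0.545 times (0.331 to 0.881) the level of that library.

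Genes of related function were counted in the same comparison, beside a median difference of -0.02 over all genes tested and against the 20.1% of them called higher and 18.4% lower. A gene under 1 FPKM in both UM-UC-3 sh-LNMAT1 libraries passed the filter only through 5637 and had to differ. This held for 4 genes called higher among the EPCAM partners below, 1 of the transmembrane mucin list and 5 of the sugar enzymes. It also held for 5 of the genes around CD44, 1 of the other antigens and 8 of the epithelial markers. Among the other markers it held for COL1A1, LAPTM5 and GATA3. In the same way, genes under 1 FPKM in both 5637 sh-LNMAT1 libraries passed only through UM-UC-3 and had to be lower. These were MUC15, GALNT18, L1CAM, ZEB1, SPARC and CD68. The list counts are therefore descriptions. Of 13 relatives and processing partners of EPCAM, 12 were tested, 5 were called higher in 5637 and 3 lower, with a median of 0.47. SPINT1 and SPINT2, inhibitors of surface proteases, were higher by 5.98 and 5.78. SPINT1 was at 34.5 and 28.8 FPKM in the 5637 sh-LNMAT1 libraries and at most 0.0121 FPKM in the other 4. The sheddase ADAM17 and the tetraspanin CD9 were among the 3 called lower, with differences of -1.0 and -0.95. Of the other proteases or protease subunits that can cut EPCAM, BACE2 was higher by 1.20, and ADAM10, PSEN2 and NCSTN did not pass.

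Among 11 genes listed as other transmembrane mucins and sialomucins, 4 were tested, 2 were higher and 1 lower, with a median of 0.65. MCAM, counted among those higher, is not itself a mucin. MCAM, an adhesion protein, was at 8.05 and 5.68 FPKM in the 5637 sh-LNMAT1 libraries and at most 0.0667 FPKM elsewhere, a difference of 3.75, and PODXL was higher by 1.67. MUC15 ran against MUC16, at 2.33, 6.43 and 2.40 FPKM in the UM-UC-3 libraries and 4.58 FPKM under the label 5637 sh-NC. In 5637 sh-LNMAT1#1 and sh-LNMAT1#2 it was at 0 and 0.0104 FPKM, a difference of -3.15 (standard error 0.43, adjusted p from limma = 0.00424). It passed the filter only through UM-UC-3 and had to be lower. All 6 secreted mucins were under 1 FPKM in every library, and together they reached at most 0.206 FPKM. Of 11 other members of the CEACAM family, 1 was tested, CEACAM19, which differed by 0.44 and did not pass. CEACAM1 was at 1.14 and 0.652 FPKM in the 5637 sh-LNMAT1 libraries and at most 0.0649 FPKM elsewhere. MSLNL, the 1 mesothelin neighbour in the table, was at most 0.0149 FPKM.

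Mucins are decorated by enzymes that add O-linked sugars, and 18 of 23 of these were tested, with 8 higher, 2 lower and a median of 0.82. GALNT5 and GALNT3, which start the sugar chains, were higher by 4.23 and 3.94, and GALNT18 of the same family was lower, with a difference of -3.93. GALNT3 was at 6.47 and 8.09 FPKM in the 5637 sh-LNMAT1 libraries and at most 0.0274 FPKM in the other 4. Of the genes for CD44 splicing, linkage to actin and hyaluronan, 16 were in the table, 11 were tested, 6 were higher and 1 lower, with a median of 1.30. ESRP1, a splicing factor that keeps the variable exons of CD44, was at 24.0 and 19.8 FPKM in the 5637 sh-LNMAT1 libraries and at most 0.117 FPKM elsewhere, a difference of 5.32 (standard error 0.21, adjusted p from limma = 0.00018). HAS2 and HAS3, which make hyaluronan, were higher by 3.12 and 3.09. EZR and MSN both link CD44 to actin. EZR was higher by 1.30, at 78.3 and 71.1 FPKM in the 5637 sh-LNMAT1 libraries against 35.9 and 25.0 FPKM in the UM-UC-3 sh-LNMAT1 libraries, and MSN was the 1 called lower, with a difference of -2.33, from 211 and 149 FPKM in the UM-UC-3 sh-LNMAT1 libraries to 39.3 and 30.9 FPKM. CD44 itself did not pass while these genes around it did, and a test of that contrast was not made.

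Other surface antigens of carcinomas were 17 in the table, of which 11 were tested, with 6 higher, 1 lower and a median of 0.91. F3, the tissue factor, was higher by 3.03 and PVRL4, which encodes nectin-4, by 2.52, and L1CAM was lower, with a difference of -2.38. Of the cell type markers, 10 of 10 epithelial genes tested were higher with a median of 5.02, of which 8 had to be through the filter, and among 6 mesenchymal genes tested, 2 were higher and 4 lower with a median of -2.77. KRT19 was higher by 9.27, KRT5 by 7.71 and KRT7 by 7.22, and SPARC and VIM differed by -5.89 and -4.90. GATA3 and PPARG, the 2 urothelial genes tested, were higher by 2.68 and 2.78. Of 2 leukocyte genes tested, LAPTM5 was higher by 6.26 and CD68 lower, with a difference of -3.96, and 0 endothelial genes were tested.

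**Figure D2:**
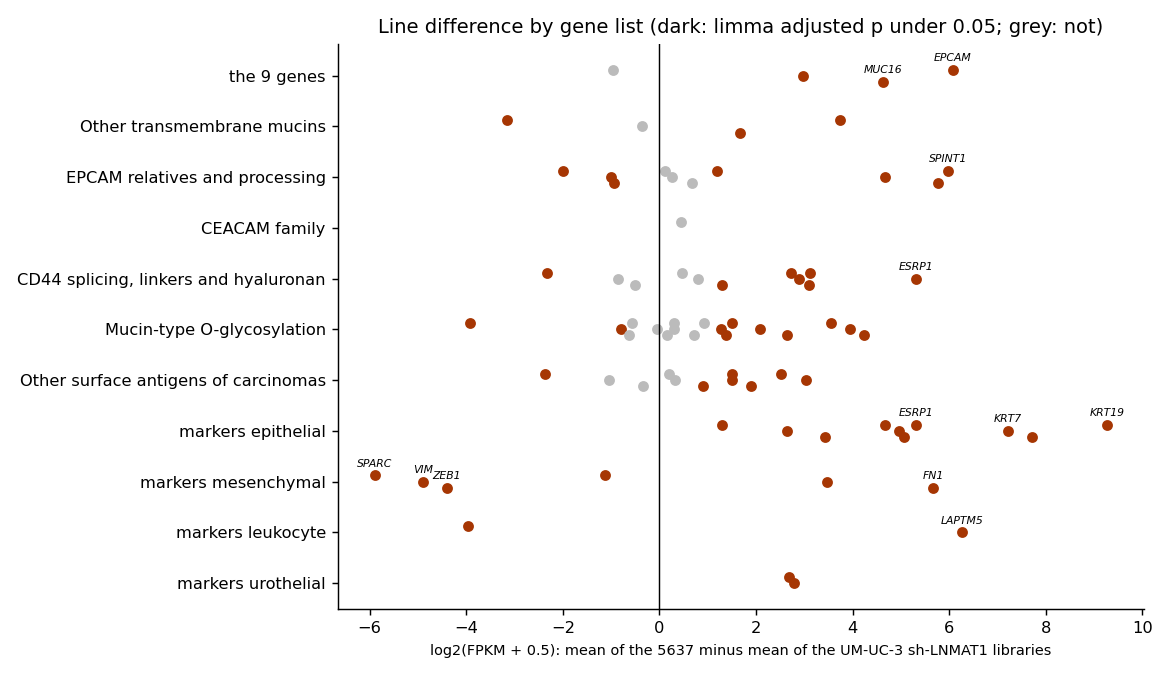
Line difference on the scale of log2(FPKM + 0.5), 5637 minus UM-UC-3 over the sh-LNMAT1 libraries, for tested genes of each list, 1 row per list, dark where the limma adjusted p was under 0.05. EPCAM (6.08) and MUC16 (4.63) lie right of 0 with SPINT1 and the keratins, and the mesenchymal row holds genes on both sides.

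The effect of the hairpins was read against the sh-NC library of each line, without a test. A gene was counted when both hairpins gave a difference of 2-fold or more to the same side, among genes that averaged 1 FPKM or more over the 3 libraries of the line. In UM-UC-3, CD24 and CD44 passed that filter and neither was counted, against 1.08% of genes higher and 0.358% lower. CD24 was higher by 2.16 with sh-LNMAT1#1 and by 0.55 with sh-LNMAT1#2, fragment ratios of 5.62 (4.97 to 6.37) and 1.62 (1.40 to 1.87). CD44 differed by -0.17 and -0.16. The values with the UM-UC-3 hairpins lay close together for CD44 and apart for CD24. Over all genes, UM-UC-3 sh-LNMAT1#1 had a lower Pearson r with UM-UC-3 sh-NC (0.923) than with the library labelled 5637 sh-NC (0.985). What this means for its hairpin differences was not tested.

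The remaining 7 genes were too low in UM-UC-3 for the filter. MUC1 had fragment ratios of 0.927 with sh-LNMAT1#1 (0.626 to 1.37) and 1.38 with sh-LNMAT1#2 (0.972 to 1.96), and MUC4 of 1.02 (0.427 to 2.43) and 0.828 (0.325 to 2.04), all with intervals that include 1. MUC20 had 19 fragments with sh-LNMAT1#1 against 1 in sh-NC, a ratio of 21.1 (3.35 to 875), and 3 fragments with sh-LNMAT1#2. EPCAM stayed at 2 fragments or fewer with both hairpins.

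In the libraries labelled 5637, 4 genes passed the filter and 3 were at least 2-fold higher with both hairpins, EPCAM, CD24 and MUC16, against 18.5% of all genes higher and 12.3% lower. EPCAM and MUC16 passed this filter only through the sh-LNMAT1 libraries and had to be higher, so the count is no support for the set. All of these differences use the library labelled 5637 sh-NC. EPCAM differed by 6.07 with sh-LNMAT1#1 and 6.14 with sh-LNMAT1#2, and its ratio against 1 fragment was 3247 (582 to 128276) and 3421 (614 to 135169). MUC16 differed by 4.83 and 4.43, with ratios of 2756 (1181 to 8490) and 2063 (884 to 6354). MUC4, under the filter, differed by 1.06 and 1.10, ratios of 34.9 (18.1 to 77.0) and 36.5 (19.0 to 80.7). CD24 differed by 1.44 and 1.97, ratios of 2.79 (2.65 to 2.93) and 4.05 (3.86 to 4.25). Side by side with the line differences over the sh-LNMAT1 libraries, which share the 5637 sh-LNMAT1 libraries with them, these values are close for EPCAM, MUC16 and MUC4 and smaller for CD24.

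CD44 differed by -1.52 with sh-LNMAT1#1 and -0.01 with sh-LNMAT1#2, and MUC1 and MSLN had ratios with intervals that include 1 with both hairpins. MUC20 had ratios of 2.66 (1.36 to 5.51) and 2.41 (1.20 to 5.08).

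**Figure D3:**
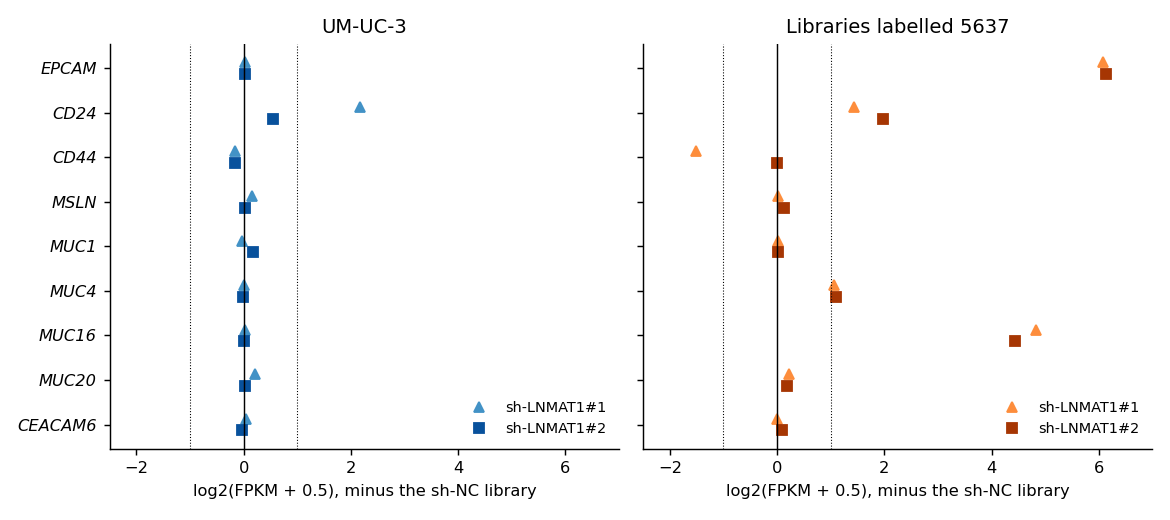
Difference of log2(FPKM + 0.5) from the sh-NC library of the same label for sh-LNMAT1#1 (triangles) and sh-LNMAT1#2 (squares), UM-UC-3 left and the libraries labelled 5637 right, with dotted lines at 2-fold. In UM-UC-3 only CD24 with sh-LNMAT1#1 (2.16) passes 2-fold, while on the right EPCAM, MUC16, MUC4 and CD24 lie right of the dotted line with both hairpins.

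The difference between the hairpins of a line gives the scale of change between libraries that share a target. In UM-UC-3, sh-LNMAT1#2 against sh-LNMAT1#1 differed by -1.61 for CD24 and by 0.00 for CD44, and 1 of the 2 genes passed 2-fold, against 8.79% of all genes. In 5637, CD44 differed by 1.51, CD24 by 0.53, MUC16 by -0.40 and EPCAM by 0.07, and 1 of 4 passed 2-fold, against 2.01% of all genes. The fragment ratio of CD44 was 2.99 (2.86 to 3.13), that of CD24 1.45 (1.40 to 1.5), that of MUC16 0.748 (0.728 to 0.769) and that of EPCAM 1.05 (1.00 to 1.11). MUC4, at 1.05 (0.887 to 1.24), and MUC1, at 0.994 (0.553 to 1.78), had intervals that include 1.

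Pooled over both lines, with the line as a covariate, 0 of the 9 genes and 0% of 12717 genes passed an adjusted p of 0.05 from limma, while 811 genes had an unadjusted p under 0.05. EPCAM differed by 3.07 (standard error 1.28), MUC16 by 2.32 (1.01), CD24 by 1.53 (0.48) and CD44 by -0.46 (0.45), with adjusted p from limma of 0.569 for the first 3 and 0.683 for CD44. Without the library labelled 5637 sh-NC, EPCAM differed by 0.03 and MUC16 by 0.01, and without UM-UC-3 sh-NC by 6.11 and 4.63, adjusted p from limma of 0.000524 and 0.000641. The pooled value of both genes is therefore the mean of a difference near 0 and a large one. Both genes were near 0 elsewhere and passed the filter only through the 5637 sh-LNMAT1 libraries. Their term for line by knockdown thus had to be large, and its call is no support for the set. The fit of line by knockdown called EPCAM (6.08, standard error 0.34, adjusted p from limma = 0.00285) and MUC16 (4.62, standard error 0.39, adjusted p from limma = 0.00343), where 18.8% of all genes were called (1270 higher and 1118 lower). Over all genes it called 398 higher and 100 lower without 5637 sh-LNMAT1#1, 407 and 94 without 5637 sh-LNMAT1#2, and 2175 and 1930 without UM-UC-3 sh-LNMAT1#2. The full fit gave CD24 0.35 (0.95) and CD44 -0.60 (0.86), adjusted p from limma of 0.812 and 0.64. Each line has 1 sh-NC library, so a departure of the library labelled 5637 sh-NC and a difference between the lines cannot be told apart here.

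The genes closest to each of the 4 kept genes were found among 11425 named genes by the root-mean-square distance between centred log2(FPKM + 0.5) values over the 6 libraries, the one labelled 5637 sh-NC included, as a description. EPCAM was nearest to FAM83H (0.05), TNS4 (0.06) and SERPINB5 (0.07), which were at 29.9 to 36.3 FPKM in the 5637 sh-LNMAT1 libraries and at most 0.0381 FPKM elsewhere. MUC16 was nearest to ARHGEF34P (0.02), EFEMP1 (0.03) and HCAR2 (0.04), which were at 10.2 to 14.2 FPKM in the 5637 sh-LNMAT1 libraries and at most 0.0213 FPKM elsewhere. CD24 was nearest to its copy CD24P4 (0.17), with which it shares sequence, and to ULBP2 (0.29). ULBP2, a surface ligand of natural killer cells, was at 1.62, 11.7 and 2.36 FPKM in UM-UC-3, 8.29 FPKM under the label 5637 sh-NC, and 31.3 and 40.1 FPKM in the 5637 sh-LNMAT1 libraries. CD44 was nearest to ACTR6 (0.19), CSNK2A1 (0.21) and ZNF485 (0.22), each lowest in 5637 sh-LNMAT1#1.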

How the data were processed

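Total RNA of 6 cell cultures was extracted with Trizol and sequenced from stranded mRNA libraries. HISAT2 and hg38 are named in the submitters' processing notes; the counting program and the annotation are not given in the sources used here. The authors deposited FPKM per gene (50869 rows, of which 1 had no values). Groups came from the sample labels. Depth was recovered from single-exon genes, where 99.94% or more of the values in each library correspond to a whole number of fragments (within 0.05), and fragments of each gene from its exon lengths in GENCODE 29. For genes with overlapping exons, at least 92.69% of values were whole with the sum of distinct exons as length and 9.26 to 9.46% with merged exons. For MSLN the shortest length that made all values whole was used. Counting intervals are exact (Poisson for a count, Clopper-Pearson for a ratio, 95%).

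Python 3.11.15 and R 4.3.3 with limma 3.58.1 (lmFit, eBayes with a trend) were used on log2(FPKM + 0.5), with genes of a mean of at least 1 FPKM over the libraries of a fit, and the scripts were tested on simulated data. The members and gene lists were chosen with earlier results of these data known. The genes named were the 9 members, the 3 largest line differences of each list, LINC01296 and the 3 genes of the most similar profile per kept member; ADAM10, ADAM17, CD9, PSEN2, NCSTN, CEACAM1, MSLNL, MSN, EZR, BACE2, ZEB1, GRHL2, CD3E and the uroplakins were named with their values known. Some genes that these rules select are not reported here, and list counts include them. Alternatives were pseudocounts of 0.1 and 1, 75th-percentile scaling, no filter and a filter of 5 FPKM, no trend, a 1.5-fold limit, each hairpin alone, a block for the hairpin number, other sets of libraries, leaving out each library and, added after seeing the data, FPKM on merged exon length.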

Additional observations from a re-analysis of the deposited data

Results flagged for a closer look

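For EPCAM the hairpin effect differed between the lines by 6.08 on the log2 scale, and for MUC16 by 4.62, in the interaction term of limma. Both use the library labelled 5637 sh-NC, in which EPCAM rested on 1 fragment and MUC16 on 5. Both genes passed the filter only through the 5637 sh-LNMAT1 libraries, so the term had to be large. Without an sh-NC library of either line the term cannot be estimated, so the part of that library in the difference was not tested. Groups of 1 library allow no search for a sample far from the replicates of its group. The library labelled 5637 sh-NC was set apart by its Pearson r with libraries of other groups.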

How the results depend on the processing

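Of the 9 genes, 3 were called higher in the line comparison over the sh-LNMAT1 libraries, 0 with all 6 libraries placed by label, 2 to 3 with 1 library left out, and 3 under every other alternative run. Without a filter the 3 were EPCAM, MUC16 and MUC4, with CD24 lost. The pooled comparison called 0 members under each alternative except without UM-UC-3 sh-NC (range 0 to 2). The interaction called 2, and 1 with a filter of 5 FPKM, which MUC16 did not pass, and 3 without a filter. Without UM-UC-3 sh-LNMAT1#2 the interaction of CD24 turned to -0.45 (range with 1 library left out -0.45 to 1.16), and without 5637 sh-LNMAT1#1 that of CD44 turned to 0.15 (range -1.36 to 0.15), and neither was called. With sh-LNMAT1#1 alone, 1 member (CD24) was past 2-fold higher in UM-UC-3 and 1 (CD44) lower in 5637, where both hairpins together gave 0. Over all genes, the line comparison called 1125 higher and 1200 lower with a filter of 5 FPKM, and 754 to 3123 and 438 to 2450 with 1 library left out. The interaction called 417 higher and 466 lower with that filter, and 398 to 2175 and 94 to 1930 with 1 library left out. Without UM-UC-3 sh-NC the pooled comparison called 2114 genes higher and 1911 lower.

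With the hairpin number as a replicate block, the line comparison called the same 3 members. The number marks a construct and no shared culture, and with 2 pairs it pairs nothing, so this is no paired result. Scaling to the 75th percentile shifted the values of a library by at most 0.0413 (log2). Of 370 recomputed values of single members, 346 kept their call or lay within their counting interval and 14 moved by more than that interval. A further 6 lost and 2 gained a call, and 2 changed sign. For hairpin differences, a change of sign was counted only where the main value was at least 1 in size. A kept call does not mean a kept size, as the pooled difference of EPCAM went from 3.07 to 0.03 without the library labelled 5637 sh-NC. Depth limits MSLN, MUC20, CEACAM6 and, in the UM-UC-3 libraries and the library labelled 5637 sh-NC, EPCAM and MUC16, which rest on a few fragments.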

Other observations

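Single genes of the marker lists ran against the lists. FN1, fibronectin, and COL1A1, a fibrillar collagen, are listed as mesenchymal and were higher in the 5637 sh-LNMAT1 libraries, by 5.67 and 3.47 on the log2 scale, with adjusted p from limma of 0.000254 and 0.000514. COL1A1 passed the filter only through 5637 and had to be higher. FN1 was at 110 and 102 FPKM there and between 0.816 and 2.27 FPKM in the other 4 libraries. LAPTM5, a lysosomal membrane protein listed as a leukocyte marker, was at 33.1 and 48.6 FPKM in the 5637 sh-LNMAT1 libraries and at most 0.161 FPKM elsewhere. CD68 of the same list ran the other way, with a difference of -3.96 (adjusted p from limma = 0.00145). LAPTM5 passed the filter only through 5637 and CD68 only through UM-UC-3, so both had to differ. PTPRC, the pan-leukocyte marker, was at most 0.0108 FPKM in every library. CLDN4, a tight junction gene of the epithelial list, was at most 0.209 FPKM in every library, where the other 10 genes of the list were higher in 5637.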
